A study of Homo sapiens with 16 samples.

Results

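The MYC, MAX, MXD, MNT and MLX network is the set of transcription factors that pair with MAX or with MLX to bind DNA. The genes described are MYC, MAX, MXI1, MNT, MXD1, MXD3, MXD4, MGA, MLX and MLXIP, taken by symbol, and they make up 10 of the 18529 genes listed in either expression table. All 10 are in both tables, under 1 identifier each, and all 10 passed the filter on low values in both. RNA sequencing measured them in 16 tumours that U87 cells, a long-established human glioblastoma line, formed in the brains of nude mice, which lack T cells but keep other immune cells.

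Every mouse received exosomes, small vesicles shed by cells, from MSC (as the labels abbreviate the source), so the controls carried the vesicle treatment too. The 3 Myc1 tumours came from mice given exosomes with a siRNA against human MYC, number 1, and the 4 Scr1 tumours from mice given exosomes with scramble siRNA number 1. The 5 Myc2 tumours came from mice given human MYC siRNA number 2 in exosomes, and the 4 Scr2 tumours from mice given scramble siRNA number 2. In the first experiment, Myc1 against Scr1, the U87 cells carried luciferase, treatment began on day 28 after implantation, and 1e9 exosomes in 100 µl were injected behind the eye every other day. Tumours of that experiment were taken when a mouse met the criteria for euthanasia, so they were not matched for time. The sources used here do not give the dose and timing of the second experiment or the ages of the mice. No group without exosomes was analysed here.

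MAX sits at the centre of the network. Proteins of this family carry a basic helix-loop-helix leucine zipper, by which they form dimers on the E-box, the DNA sequence CACGTG. MYC with MAX activates genes of growth, ribosome production and the cell cycle, and in glioblastoma it is known for its part in the growth of tumour cells with stem cell traits. MXD1, MXI1 (also called MXD2), MXD3, MXD4 and MNT compete with MYC for MAX and bring SIN3 and histone deacetylases to the same sites, where they repress. MGA pairs with MAX in a Polycomb complex, and MLX is a second partner, for MNT, MXD1, MXD4 and the glucose sensor MLXIP (MondoA).

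The E-box was looked for in RefSeq promoter windows (GRCh38.p14), the 250 bases before each annotated start. Windows were found for 9 of the 10 genes, 14 windows in all. MYC had none, so its promoter was not searched. CACGTG, which reads the same on both strands, occurred in 3 of the 14, against 6.34% of 35116 windows of all genes. These are shown because they carry the network's own binding sequence in front of its own members: MXD4 (chr4:2262300-2262359, minus strand), MNT (chr17:2401221-2401280, minus strand) and MLX (chr17:42567023-42567082, plus strand, of which the last 15 bases are annotated as exon). The capitals mark CACGTG, whose first base lies at -238 in MXD4, -193 in MNT and -50 in MLX, counted from the RefSeq start that ends the window.
MXD4: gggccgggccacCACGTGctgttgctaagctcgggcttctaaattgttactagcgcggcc
MNT: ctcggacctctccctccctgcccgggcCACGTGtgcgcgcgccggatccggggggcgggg
MLX: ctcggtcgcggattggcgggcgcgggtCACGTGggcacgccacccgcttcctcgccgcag
A match is a sequence, not a measured binding site, and no binding data were analysed here.

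The values are log2 CPM, that is counts relative to the library total, and were quantile-normalized within each experiment, so levels are compared within an experiment only. Scr1 replicate 3 was shallow, with an estimated 3.35 M reads, where the other 6 libraries of the first experiment had 15.2 to 23.8 M. In the second experiment Scr2 replicate 4 had 10.5 M and the other libraries 15.2 to 29.5 M. In the first experiment Scr1 replicate 4, the tumour with the most MYC, MNT and MLXIP, lay at 61.5 on the first principal component, which held 31.3% of the variance, against -44.7 to -5.04 for the Myc1 tumours and -36.5 to 29.5 for the other Scr1 tumours. In the second, Scr2 replicates 1 and 4 stood apart on the first principal component of all tested genes, at 63.4 and 94.4, against -47.6 to -4.44 for the Myc2 tumours and -28 and -2.74 for the other Scr2 tumours. All 8 glioma identity genes fixed for U87 (such as VIM, CD44 and NES) were present, and their summed level ran from 14700 to 18400 CPM in Myc1, 15600 to 16500 in Scr1, 11300 to 14100 in Myc2 and 13700 to 16300 in Scr2. Of the astrocyte markers 5 of 7 were in the tables, without AQP4 and S100B, and GFAP averaged 0.89 log2 CPM in Myc1, 1.27 in Scr1, 0.77 in Myc2 and 0.77 in Scr2. No gene passed an adjusted p of 0.05 in either experiment: 0% of 13933 genes tested with siRNA 1 (smallest adjusted p = 0.0916) and 0% of 14208 tested with siRNA 2 (smallest adjusted p = 0.37), by limma with Benjamini-Hochberg adjustment. At an unadjusted p under 0.05, 1.96% of genes were higher and 1.52% lower in Myc1, and 7.0% were higher and 6.36% lower in Myc2.

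At that unadjusted threshold, 1 of the 10 network genes was higher and 0 were lower in Myc1 than in Scr1, namely MXI1. In Myc2 against Scr2, MYC, MXI1 and MNT were higher and MXD3 was lower. None passed the adjusted threshold. Set against the shares of all genes just given, a count of 1 in 10 carries no weight. The groups did not overlap for 1 member in each experiment, MXI1 in the first and MXD3 in the second, where 4.21% and 3.01% of all tested genes did not overlap. The median log2 difference over the 10 was -0.12 for siRNA 1 (3 above 0, 6 below, MXD3 at 0.00) and 0.33 for siRNA 2 (7 above 0, 3 below), beside medians of 0.00 and -0.02 over all tested genes. The count of 4 for siRNA 2 depended on the 2 Scr2 libraries that stood apart: without both, 1 member, MXI1, was under 0.05, in place of 4.

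**Figure D1:**
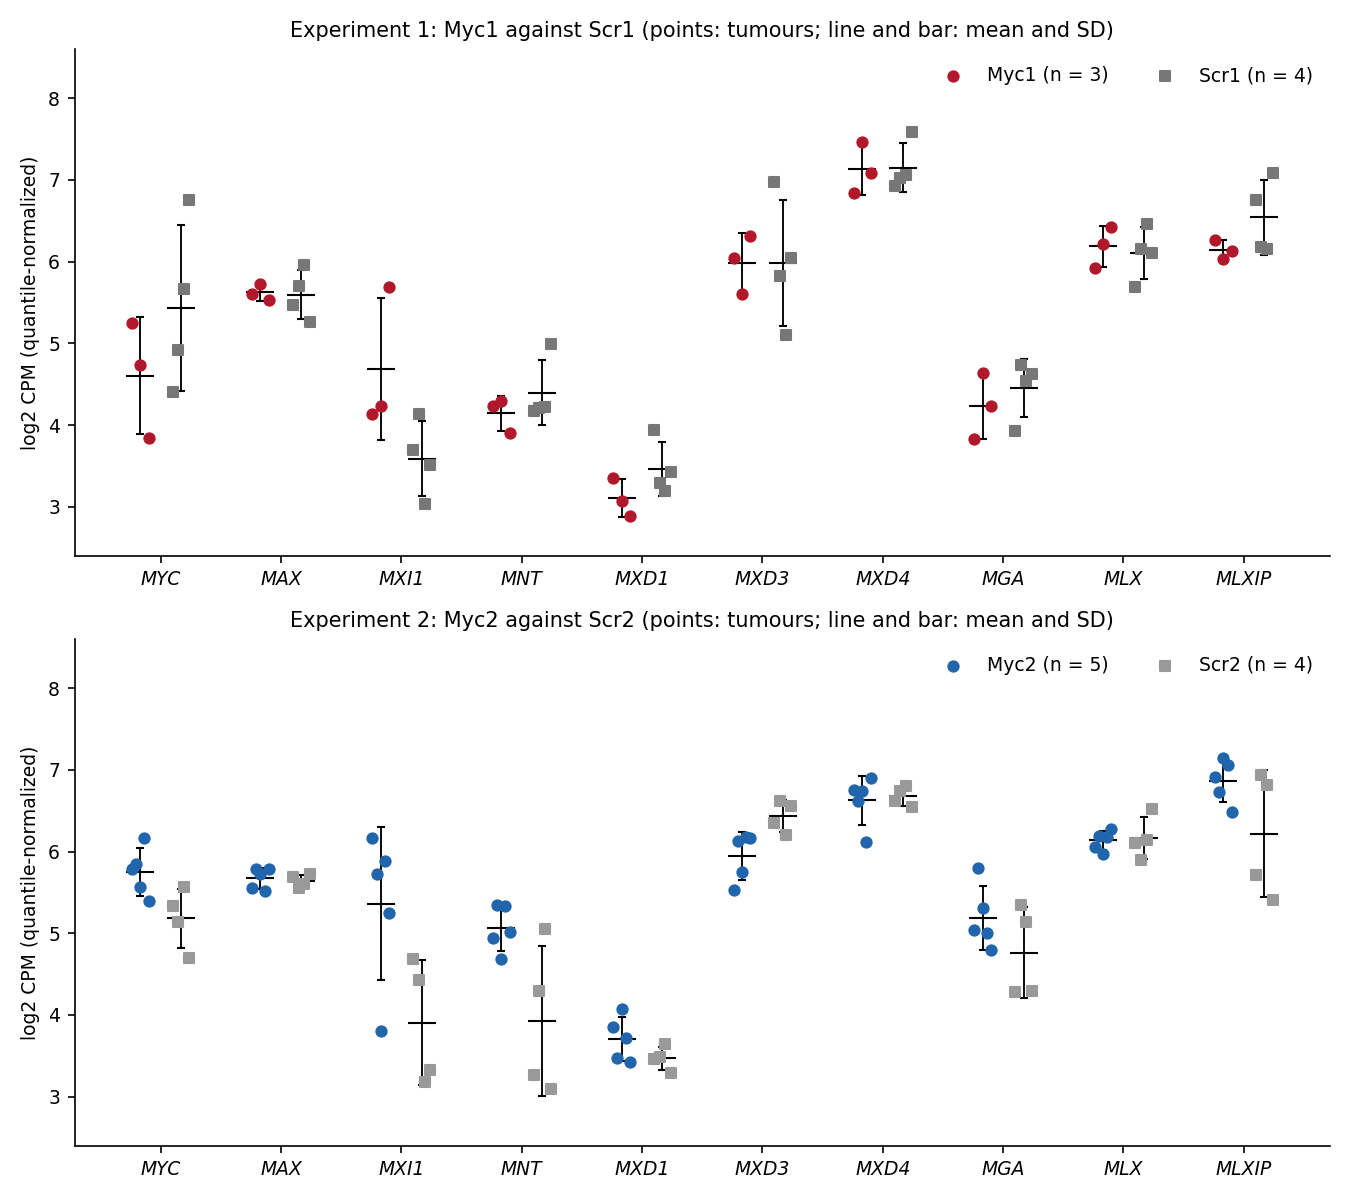
Level of each network gene (log2 CPM, vertical axis) in every tumour, with Myc1 and Scr1 above and Myc2 and Scr2 below; points are tumours, the horizontal line is the group mean and the bar 1 SD. MXI1 in the 3 Myc1 tumours lies above all 4 Scr1 tumours, MXD3 in the 5 Myc2 tumours lies below all 4 Scr2 tumours, and MAX is tightly grouped in the second experiment.

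MYC, the target of both siRNAs, was measured at 38.1, 26.5 and 14.3 CPM in the Myc1 tumours, and at 21.2, 30.2, 50.7 and 108 CPM in the Scr1 tumours. The groups overlapped, and 1 Scr1 tumour, replicate 4, stood far above the rest. The log2 difference, Myc1 minus Scr1, was -0.83 ± 0.54 (SE; 95% interval -2.06 to 0.40), within the spread between tumours (exact two-sided permutation p = 0.314 over 35 arrangements, the smallest possible being 0.0286). With 1 tumour left out it ran from -1.17 (without Scr1 replicate 1, limma unadjusted p = 0.0362) to -0.39 (without Scr1 replicate 4, limma unadjusted p = 0.351). Without Scr1 replicate 4 and Myc1 replicate 3, a choice made after seeing the data, it was -0.0064. In bulk tumours, fewer cells that express a gene and less RNA per cell cannot be told apart.

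In the second experiment MYC stood at 55.3, 57.5, 47.0, 72.1 and 42.3 CPM in the libraries labelled Myc2, and at 40.2, 35.3, 47.1 and 25.9 CPM in those labelled Scr2. Scr2 replicate 3 lay above 2 of the 5 Myc2 libraries, and the other Scr2 libraries lay below all of them. The log2 difference was 0.57 ± 0.21 (SE; 95% interval 0.10 to 1.04), a fold of 1.49 (exact two-sided permutation p = 0.0397, the smallest possible being 0.00794; limma unadjusted p = 0.0208, adjusted p = 0.37). The target thus went against the label in this experiment, and its groups are called by their labels. Leaving out single libraries gave differences of 0.41 to 0.70, and the limma unadjusted p was 0.065 without Scr2 replicate 4 and 0.055 without Myc2 replicate 4. It was 0.40 without Scr2 replicates 1 and 4 (limma unadjusted p = 0.105). The difference was 0.22 when Myc2 replicate 5 alone, whose mouse number begins with the same digit as those of all Scr2 mice, was set against Scr2. The numbers of all other Myc2 mice begin with another digit, so siRNA and mouse number nearly coincide in this experiment. Whether mouse numbers mark a cohort is not stated. If they do, cohort and siRNA cannot be told apart in the full comparison of Myc2 with Scr2.

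MAX, the partner of MYC, MGA and the MXD proteins, had the smallest spread of the 10 genes within groups in both experiments. It measured 48.9, 53.1 and 46.2 CPM in Myc1, and 44.2, 52.1, 62.4 and 38.4 CPM in Scr1. In Myc2 it measured 46.8, 55.4, 52.8, 45.9 and 55.2 CPM, and in Scr2 51.8, 46.8, 48.7 and 52.8 CPM. The groups overlapped throughout, with log2 differences of 0.02 (95% interval -0.47 to 0.52) for siRNA 1 and 0.03 (95% interval -0.27 to 0.34) for siRNA 2. The pooled SD within groups in the second experiment was 0.11 log2 units, and 0.838% of the tested genes had a smaller one. MAX overlaps FNTB on the opposite strand, and the sources used here do not say whether counting used the strand.

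MXI1, a repressor of the MXD family that binds MAX and recruits SIN3, had 17.6, 18.8 and 51.6 CPM in Myc1, and 12.9, 17.5, 8.15 and 11.4 CPM in Scr1. Every Myc1 tumour lay above every Scr1 tumour, but only by 17.6 against 17.5 CPM at the nearest pair, and Myc1 replicate 3 stood far above the others. The log2 difference was 1.09 ± 0.39 (SE; 95% interval 0.26 to 1.92), a fold of 2.14 (limma unadjusted p = 0.0135, adjusted p = 0.996; exact two-sided permutation p = 0.0571). With 1 tumour left out it ran from 0.59 (without Myc1 replicate 3, limma unadjusted p = 0.119) to 1.37 (without Myc1 replicate 1, limma unadjusted p = 0.0055). The lowest Scr1 value is that of the shallow replicate 3, about 27 reads with a counting error of 19.1%.

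In the second experiment MXI1 had 71.3, 52.5, 13.9, 58.8 and 38.1 CPM in Myc2, and 25.8, 21.6, 9.04 and 10 CPM in Scr2. Of the 5 Myc2 tumours 4 lay above all Scr2 tumours, while Myc2 replicate 3 lay among them. The log2 difference was 1.45 ± 0.47 (SE; 95% interval 0.42 to 2.49), a fold of 2.74 (limma unadjusted p = 0.0103, adjusted p = 0.37; exact two-sided permutation p = 0.0556). It was 1.56 without Scr2 replicates 1 and 4 (limma unadjusted p = 0.0394), between 1.21 and 1.84 with any 1 library left out, and 1.34 for Myc2 replicate 5 alone against Scr2. MXI1 was the one member with a limma unadjusted p under 0.05 and the same sign in both experiments. The 2 effects differed by -0.36 ± 0.69 (SE; limma unadjusted p = 0.608, exact permutation p = 0.73).

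MXI1 is also known as a target of HIF-1, the transcription factor that accumulates when oxygen is low, which binds the core sequences ACGTG and GCGTG. Over 14 measured hypoxia genes (VEGFA, NDRG1, CA9 and others, without MXI1), the mean level was 5.62, 5.36 and 6.70 log2 CPM in Myc1, and 5.06, 5.65, 5.57 and 5.76 in Scr1. In Myc2 it was 7.36, 7.47, 5.41, 7.46 and 6.80 log2 CPM, and in Scr2 6.18, 5.70, 5.38 and 5.16. Myc1 replicate 3, which had the most MXI1 of its experiment, had the highest hypoxia mean, and Myc2 replicate 3, which had the least MXI1 of its group, had the lowest hypoxia mean of that group. Of the 14 genes, 3 were higher in Myc1 and 9 in Myc2 at an unadjusted limma p under 0.05, with 0 lower, and medians of 0.49 and 1.04. Of all tested genes, 1.96% were higher in Myc1 and 7.0% in Myc2. The 3 in Myc1 were BNIP3L (0.95 ± 0.34), LOX (0.79 ± 0.30) and P4HA1 (0.67 ± 0.28, SE). The part of hypoxia in the MXI1 difference was not tested.

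**Figure D2:**
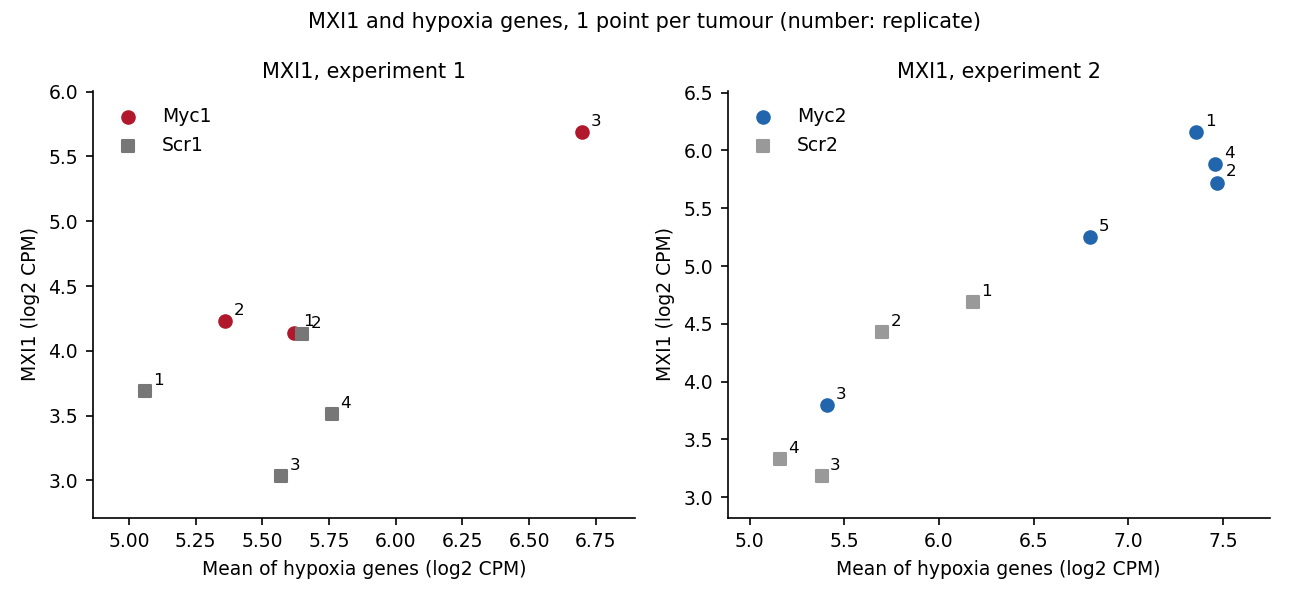
MXI1 (log2 CPM, vertical axis) against the mean of 14 hypoxia genes (log2 CPM, horizontal axis), 1 point per tumour, numbers giving the replicate, with the first experiment on the left and the second on the right. In the second experiment Myc2 replicate 3 lies among the Scr2 tumours on both axes, and in the first Myc1 replicate 3, at 6.70, lies away from the other 6 tumours.

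The MXI1 promoter is shown because Myc2 replicates 1, 2, 4 and 5 had the most MXI1 and the highest hypoxia means of their experiment. In the first experiment only Myc1 replicate 3 was high in both. Scr1 replicate 4 had the next highest hypoxia mean there, 5.76, with 11.4 CPM of MXI1. MXI1 has 3 RefSeq windows, and the first holds neither sequence. The middle one, at chr10:110210083-110210142 (plus strand), holds GCGTG with its first base at -127 and, on the other strand, ACGTG, which reads CACGT on this one, at -113. The last, at chr10:110225837-110225896 (plus strand), holds GCGTG at -131. The capitals mark these letters.
MXI1, middle start: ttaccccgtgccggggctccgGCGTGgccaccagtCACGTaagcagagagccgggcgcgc
MXI1, last start: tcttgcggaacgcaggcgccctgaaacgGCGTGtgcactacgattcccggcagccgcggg
On either strand, ACGTG occurs in 18.5% and GCGTG in 32.2% of all 35116 windows, and ACGTG is also part of CACGTG. These sequences are not particular to MXI1 among the members. ACGTG or GCGTG also occurs in windows of MAX, MXD3, MGA, MLX and MLXIP, and within CACGTG in those of MXD4 and MNT. Of the members searched, only MXD1 had neither. Whether HIF-1 binds any of them was not tested.

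MNT, which pairs with MAX or MLX and is the broadly expressed antagonist of MYC, had 18.8, 19.6 and 15 CPM in Myc1, and 18.0, 18.5, 18.7 and 31.8 CPM in Scr1, where the groups overlapped and Scr1 replicate 4 was again the highest. The log2 difference was -0.26 ± 0.28 (SE; 95% interval -0.85 to 0.34; exact permutation p = 0.571), and -0.06 without Scr1 replicate 4 (limma unadjusted p = 0.815). Without that tumour and Myc1 replicate 3 it was 0.06. In Myc2 it had 30.8, 40.8, 25.9, 40.1 and 32.2 CPM, and in Scr2 9.61, 19.6, 33.1 and 8.51 CPM. Every Myc2 library stood above 3 of the 4 Scr2 libraries, and Scr2 replicate 3 lay inside the Myc2 range.

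The log2 difference of MNT in the second experiment was 1.14 ± 0.36 (SE; 95% interval 0.35 to 1.93), a fold of 2.21 (limma unadjusted p = 0.00872, adjusted p = 0.37; exact two-sided permutation p = 0.0317). The lowest MNT values belonged to Scr2 replicates 1 and 4, the libraries at 63.4 and 94.4 on the first principal component, which held 43.8% of the variance. Without both, the difference was 0.40 (limma unadjusted p = 0.152). The siRNA 1 effect minus the siRNA 2 effect was -1.40 ± 0.49 (SE; limma unadjusted p = 0.0102, adjusted p = 0.528; exact permutation p = 0.0166 over 4410 arrangements), and -0.65 without these 2 libraries (limma unadjusted p = 0.101).

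MXD1, the founding MXD repressor, measured 10.2, 8.37 and 7.43 CPM in Myc1, and 15.3, 9.76, 9.15 and 10.7 CPM in Scr1. In Myc2 it measured 14.4, 11.1, 16.8, 13.2 and 10.8 CPM, and in Scr2 11.0, 11.1, 12.4 and 9.81 CPM. The groups overlapped in both, with log2 differences of -0.36 ± 0.30 and 0.24 ± 0.20 (SE). These effects differed by -0.60 ± 0.32 (SE; limma unadjusted p = 0.0809, exact permutation p = 0.0336). MXD1 overlaps SNRNP27 on the same strand.

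MXD3, an MXD repressor best known from dividing progenitor cells, was the member that was lower in Myc2. It had 46.3, 70.0, 53.8, 72.7 and 71.6 CPM in Myc2, and 81.5, 98.1, 73.4 and 94.4 CPM in Scr2. All 5 Myc2 tumours lay below all 4 Scr2 tumours, by 72.7 against 73.4 CPM at the nearest pair. The log2 difference was -0.48 ± 0.18 (SE; 95% interval -0.88 to -0.08), a fold of 0.718 (limma unadjusted p = 0.0225, adjusted p = 0.37; exact two-sided permutation p = 0.0159). With 1 library left out it ran from -0.56 to -0.37, with a limma unadjusted p of 0.0593 without Myc2 replicate 1 and 0.059 without Scr2 replicate 2. The difference was -0.46 without Scr2 replicates 1 and 4 (limma unadjusted p = 0.0691) and -0.27 for Myc2 replicate 5 alone against Scr2.

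In the first experiment MXD3 had 6.05, 5.60 and 6.31 log2 CPM in Myc1, and 6.97, 5.82, 5.10 and 6.05 log2 CPM in Scr1. Scr1 held both the highest and the lowest tumour, and both means were 5.99 log2 CPM, with a log2 difference of 0.00 ± 0.36 (SE). With 1 library left out it ran from -0.30 (without Scr1 replicate 3) to 0.33 (without Scr1 replicate 1). MXD3 overlaps RAB24 on the same strand and PRELID1 on the opposite one, so its counts are uncertain where reads could be split between them.

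MXD4, a further MXD repressor with an E-box in its promoter window, ran from 115 to 177 CPM in Myc1, 122 to 193 in Scr1, 69.5 to 119 in Myc2 and 93.3 to 112 in Scr2. The groups overlapped in both experiments. The log2 differences were -0.02 ± 0.23 and -0.05 ± 0.18 (SE), with 95% intervals of -0.51 to 0.47 and -0.43 to 0.33.

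MGA, the scaffold protein that joins MAX to a Polycomb complex, measured 14.2, 24.9 and 18.8 CPM in Myc1, and 15.2, 26.5, 23.2 and 24.6 CPM in Scr1. In Myc2 it measured 33.0, 55.8, 39.7, 32.1 and 27.8 CPM, and in Scr2 19.4, 40.5, 35.4 and 19.6 CPM. The groups overlapped in both. The 2 lowest Scr2 values were those of replicates 1 and 4. The log2 differences were -0.22 ± 0.29 and 0.43 ± 0.28 (SE; 95% intervals -0.84 to 0.40 and -0.18 to 1.04), and the second was -0.05 without Scr2 replicates 1 and 4 and 0.62 without Scr2 replicate 2 (limma unadjusted p = 0.0441).

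MLX, the partner of MLXIP, ran from 60.6 to 85.5 CPM in Myc1, 51.7 to 88.2 in Scr1, 62.7 to 77.9 in Myc2 and 59.7 to 91.9 in Scr2. Its log2 differences were 0.08 ± 0.23 and -0.03 ± 0.16 (SE; 95% intervals -0.42 to 0.58 and -0.38 to 0.32). MLX was, after MAX, the member with the smallest spread in the second experiment, with a pooled SD of 0.19 log2 units. It overlaps PSMC3IP on the opposite strand.

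MLXIP, which moves to the nucleus with MLX when glucose 6-phosphate builds up, had 77.4, 65.3 and 69.9 CPM in Myc1, and 108, 72.6, 70.9 and 136 CPM in Scr1. In Myc2 it had 120, 106, 141, 134 and 90.0 CPM, and in Scr2 52.4, 123, 113 and 42.4 CPM. The groups overlapped in both, and Scr2 replicates 1 and 4 were well below every other library of their experiment. The log2 differences were -0.40 ± 0.25 and 0.65 ± 0.31 (SE; limma unadjusted p = 0.133 and 0.0609). Their difference was -1.04 ± 0.43 (SE; limma unadjusted p = 0.0267, adjusted p = 0.528; exact permutation p = 0.0406). With 1 library left out, the siRNA 2 difference was lowest at 0.37, when Scr2 replicate 4 was dropped, and highest at 0.89, when Scr2 replicate 2 was dropped (limma unadjusted p = 0.0109). Its limma unadjusted p was 0.0216 without Scr2 replicate 3 and 0.0489 without Myc2 replicate 5. The siRNA 1 difference was -0.22 without Scr1 replicate 4. Without Scr2 replicates 1 and 4, the siRNA 2 difference was -0.01 and the difference of the effects was -0.38 (limma unadjusted p = 0.263).

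**Figure D3:**
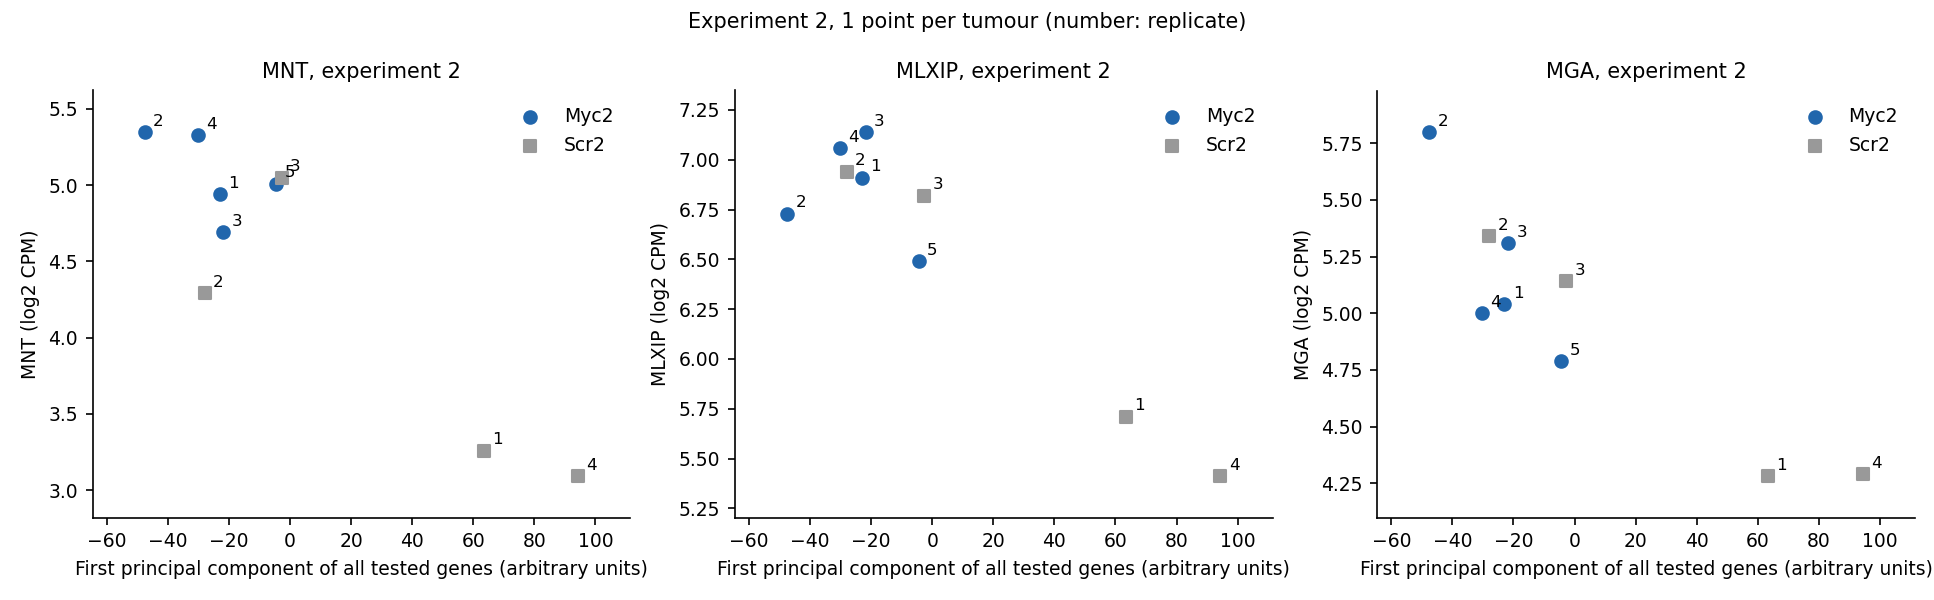
MNT, MLXIP and MGA (log2 CPM, vertical axes) against the first principal component of all tested genes of the second experiment (arbitrary units, horizontal axis), 1 point per tumour, numbers giving the replicate. Scr2 replicates 1 and 4, at 63.4 and 94.4, have the lowest level of each of the 3 genes, while Scr2 replicates 2 and 3 lie near the Myc2 tumours on the horizontal axis.

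Between the experiments, the siRNA 1 effect minus the siRNA 2 effect had a limma unadjusted p under 0.05 for MYC, MNT and MLXIP, 3 of 10 members, beside 8.75% of 13656 genes tested and 0 that passed adjustment. Without Scr2 replicates 1 and 4, 0 of the 10 members were under 0.05. For MYC the difference of the effects was -1.40 ± 0.56 (SE; limma unadjusted p = 0.0226, adjusted p = 0.528; exact permutation p = 0.058), and -1.23 without these 2 libraries (limma unadjusted p = 0.0831). For MNT and MLXIP the values are those given with each gene. The experiments differ in siRNA, scramble, normalization and mice, and these cannot be told apart.

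**Figure D4:**
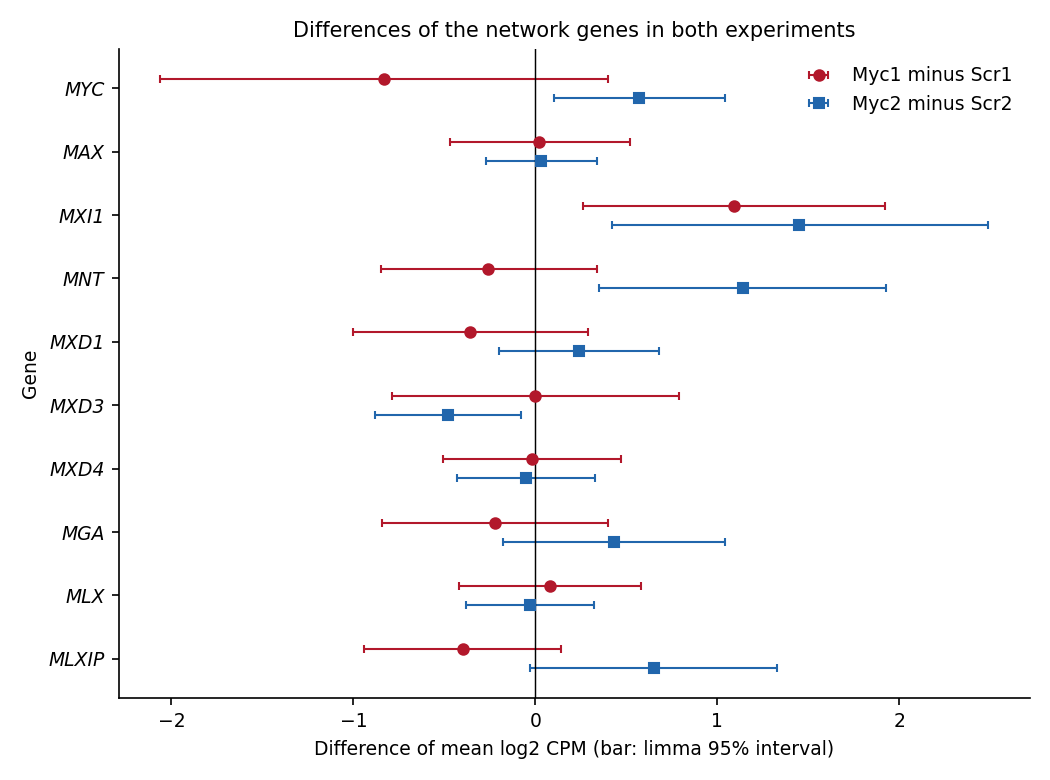
Difference of mean log2 CPM (horizontal axis) for each network gene, Myc1 minus Scr1 as circles and Myc2 minus Scr2 as squares, with limma 95% intervals as bars. MXI1 lies to the right of 0 in both (1.09 and 1.45), MYC and MNT lie left of 0 for siRNA 1 and right of 0 for siRNA 2, and MAX lies close to 0 in both.

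The members varied unevenly between tumours of 1 group. In the first experiment the pooled SD within groups was 0.91 log2 units for MYC, wider than for 94.2% of tested genes, and 0.65 for MXI1 and 0.64 for MXD3, against 0.24 for MAX. In the second it was 0.86 for MXI1, wider than for 91.7%, 0.64 for MNT and 0.54 for MLXIP, and the median over all tested genes was 0.381.

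To compare genes with each other, levels were divided by exon length (GENCODE release 29, GRCh38), as geometric mean CPM per kilobase; the annotation the authors counted on may differ. In Myc1 the order ran MXD4 19.8, MLX 17.1, MXD3 12.3, MAX 11.1, MYC 8.13, MXI1 5.58, MLXIP 5.08, MNT 2.03, MXD1 1.35 and MGA 1.07 CPM per kilobase. In Scr1 it ran MXD4 20.1, MLX 16.2, MYC 14.4, MXD3 12.3, MAX 10.9, MLXIP 6.7, MXI1 2.63, MNT 2.42, MXD1 1.73 and MGA 1.24. MXD4 and MLX led and MNT, MXD1 and MGA closed the order in both groups. Neighbours separated by more than their combined SD were MLX over MXD3, MLXIP over MNT and MNT over MXD1 in Myc1, and MAX over MLXIP and MLXIP over MXI1 in Scr1.

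In Myc2 the order ran MYC 18.0, MLX 16.5, MXD4 14.0, MXD3 12, MAX 11.5, MXI1 8.92, MLXIP 8.41, MNT 3.84, MGA 2.07 and MXD1 2.06 CPM per kilobase. In Scr2 it ran MLX 16.9, MXD3 16.7, MXD4 14.5, MYC 12.1, MAX 11.3, MLXIP 5.36, MXI1 3.26, MXD1 1.75, MNT 1.74 and MGA 1.54. Only MLXIP over MNT and MNT over MGA in Myc2, and MAX over MLXIP and MXI1 over MXD1 in Scr2, were separated by more than their combined SD. All other neighbours in these orders lay within it.

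The genes whose levels followed MXI1 most closely across the 7 tumours of the first experiment and the 9 of the second were EGLN1, a prolyl hydroxylase that marks HIF for destruction (Pearson r = 0.92 and 0.93), RORA, FUT11, IL8 and DDIT4L (r from 0.86 to 0.93). Those nearest to MNT were EHBP1L1 (r = 0.96 in both), AP2A1, LIF, ITGA3 and NBEAL2 (r from 0.93 to 0.98). Those nearest to MYC were CAPRIN2 (r = 0.88 and 0.95), PLXNA1, FOSL1, a subunit of the AP-1 factor, ITPR3 and NBEAL2 (r from 0.83 to 0.94). These are the highest of 13655 genes by the lower of the 2 values, given as a description. The tumours share group, experiment and normalization.

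Genes that work with the network were read from fixed lists, by their limma unadjusted p. Every list count here stands beside the shares of all tested genes under 0.05. These were 1.96% higher and 1.52% lower in Myc1, and 7.0% higher and 6.36% lower in Myc2. Of the cofactors MYC recruits, 0 of 18 were under 0.05 in Myc1 (median -0.16; HCFC1 -0.59 ± 0.28 SE). In Myc2, the chromatin remodelling subunit SMARCB1 was lower (-0.51 ± 0.15 SE), and the median of the list was 0.15. Of 17 regulators of MYC protein turnover, 0 were under 0.05 in Myc1. In Myc2, the deubiquitinases USP36 and USP28, which protect MYC, were higher by 0.55 ± 0.22 and 0.59 ± 0.24, and the kinase AURKA was lower, with a difference of -0.48 ± 0.20 (SE).

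Among 15 genes of the SIN3 and histone deacetylase complexes that the MXD proteins and MNT recruit, 0 were under 0.05 in Myc1 (median 0.00). In Myc2, SIN3B (0.78 ± 0.29) and SUDS3 (0.43 ± 0.18) were higher and BRMS1 (-0.46 ± 0.20, SE) was lower, with a median of -0.11. Among 15 genes of the MGA complex, 0 were under 0.05 in Myc1 (median 0.05), and in Myc2 1 was lower, the repressor E2F6 (-0.63 ± 0.18 SE), with a median of 0.00. Among other E-box binding family members, SREBF2, a master regulator of cholesterol synthesis, was lower in Myc1 (-0.70 ± 0.26 SE; 1 of 7 tested), and SREBF1, its lipogenic relative, was higher in Myc2 (0.83 ± 0.35 SE; 1 of 9 tested).

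The targets of the network were read in the same way, beside the same shares of all tested genes. Of 9 targets of MLXIP and MLX, 0 were under 0.05 in Myc1, and 2 were higher in Myc2, both of glycolysis: HK2, hexokinase 2 (1.88 ± 0.44), and PFKFB3 (1.34 ± 0.39, SE). Both are also known as hypoxia-responsive genes. The other 7 did not pass. Of 24 genes that MYC activates, 0 were under 0.05 in Myc1 (9 above 0, 15 below, median -0.09). In Myc2, 0 were higher and 3 were lower, with a median of -0.10, beside 7.0% higher and 6.36% lower of all tested genes. The 3 were ODC1, the first enzyme of polyamine synthesis (-0.70 ± 0.25), the cap-binding protein EIF4E (-0.40 ± 0.17) and the nucleolar methyltransferase FBL (-0.45 ± 0.20, SE).

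Of the genes that MYC represses, 0 of 10 were under 0.05 in Myc1 (median -0.11). In Myc2 1 of 11 was higher (median 0.40), beside 7.0% of all tested genes. It was NDRG1, at 2.47 ± 0.74 (SE), which is also one of the 14 hypoxia genes. MXD1 itself is in this list. VEGFA and KDM3A are hypoxia genes that are not in this list. In Myc2, VEGFA, the angiogenic factor, stood 2.80 ± 0.61 and KDM3A, a histone demethylase, 1.07 ± 0.26 log2 units above Scr2 (SE). None of the genes named from these lists passed adjustment, the smallest adjusted p among them being 0.37 in Myc2 and 0.996 in Myc1.

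Gene lists for host brain cells were read in the same tumours, but through human genes only, with 0 mouse identifiers. Whether a level came from mouse host cells or from the human tumour cells cannot be told apart. Astrocyte markers summed to 324 to 402 CPM in Myc1, 143 to 401 in Scr1, 204 to 841 in Myc2 and 169 to 488 in Scr2, and of these SLC1A3, a glutamate transporter, was higher by 1.03 ± 0.41 (SE; limma unadjusted p = 0.027) in Myc2. Across the host lists, the other markers with a limma unadjusted p under 0.05 were SNAP25 and CDH5. SNAP25, a synaptic protein, was higher by 0.81 ± 0.35 (SE, limma unadjusted p = 0.0378) in Myc1. CDH5, an endothelial cadherin, was higher by 2.28 ± 0.91 (SE, limma unadjusted p = 0.0283) in Myc2. CDH5 was near the floor, with means of 1.04 log2 CPM in Myc2 and -1.24 in Scr2, the latter below the 1 CPM of the filter. Microglia and macrophage markers, 3 of 9 of which were in each table, summed to 332 to 403 CPM in Myc1, 247 to 347 in Scr1, 178 to 277 in Myc2 and 163 to 268 in Scr2. Vascular markers, 5 or 6 of 8, summed to 221 to 316 CPM in Myc1, 242 to 411 in Scr1, 306 to 421 in Myc2 and 166 to 406 in Scr2. Oligodendrocyte markers, 2 of 6, ran from 148 to 185 CPM in Myc1, 134 to 196 in Scr1, 105 to 151 in Myc2 and 119 to 139 in Scr2. Neuronal markers summed to at most 26.8 CPM in any tumour, and red cell markers and the CDKN2A and MTAP genes were not analysed here. The groups overlapped in the summed level of each of these lists, and whether cell makeup has a part in the network differences was not tested.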

How the data were processed

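The authors deposited 1 table of log2 values per human gene for each experiment, with no library sizes. That these are log2 CPM, counts relative to the library total, quantile-normalized within each table, was read from the values: the antilogs of a sample add up to 995054 at the least and 998392 at the most, and the sorted values of samples nearly coincide. Because every sample then has the same distribution, a shift of most genes at once cannot be seen. Per the submitters' processing notes, bcl2fastq 2.20.0, STAR 2.6.0b and Picard were used, with human and mouse builds. How reads were counted and how mouse reads were separated is not given in the sources used here, and the tables held 0 mouse identifiers. RNA integrity numbers were at least 7.2 per the labels' protocols.

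Library sizes were estimated from the spacing of the lowest values, with a largest error on simulated counts of 3.77% (17318 genes, first experiment) and 2.22% (18168 genes, second). Counting errors rest on these sizes and cover counting only. Genes with at least 1 CPM in at least 3 (siRNA 1) or 4 (siRNA 2) samples were fitted with limma 3.58.1 in R 4.3.3 (trend and robust settings) on the deposited values, with Benjamini-Hochberg adjustment over all genes tested and a threshold of 0.05. The script was tested on simulated data. For each member, all arrangements of the sample labels gave an exact two-sided permutation p. Each library is a separate mouse by its title, so p-values measure the spread between mice. The 10 members are all named; of each gene list, up to 4 genes with the smallest limma p in each experiment were eligible to be named, and for MYC, MXI1 and MNT the 5 genes with the highest value of the lower of the 2 correlations. The members and lists were chosen with earlier results of these data known. The lists were written from general knowledge. Alternatives were log2(CPM + 1), log2(CPM + 0.1), no filter, plain limma, median centring and the leaving out of libraries. log2(CPM + 0.1) and leaving out Scr1 replicate 4 with Myc1 replicate 3 were added after seeing the data. Some genes of the lists are not reported here.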

Additional observations from a re-analysis of the deposited data

Results flagged for a closer look

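MNT in Scr1 replicate 4 stood at 4.99 log2 CPM, while the other 3 Scr1 tumours lay between 4.17 and 4.22, a gap of 0.938 of the whole range of the group. This tumour also had the most MYC and MLXIP of its experiment. In all, 30 groups of 4 or 5 tumours were examined in this way, and chance alone marks about 1 in 20.

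Differences between the siRNA effects were tested for all 10 members by exact permutation, and 3 had a permutation p under 0.05 with no adjustment. The siRNA 1 effect minus the siRNA 2 effect was -1.40 for MNT (exact permutation p = 0.0166), -0.60 for MXD1 (exact permutation p = 0.0336) and -1.04 for MLXIP (exact permutation p = 0.0406), each negative with siRNA 1 and positive with siRNA 2. None passed adjustment over all genes in limma (adjusted p = 0.528 for each). Without Scr2 replicates 1 and 4, the values were -0.65, -0.51 and -0.38.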

How the results depend on the processing

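Over all alternatives, no network gene passed the adjusted threshold; with 1 library left out, the smallest adjusted p of a member was 0.109 (MNT). Of the values recomputed for single members, 283 kept their direction and 27 reversed, these being differences whose main 95% interval held 0. The count of all genes past the threshold, 0 for each siRNA, ran from 0 to 2 with 1 library left out for siRNA 1 and from 0 to 9 for siRNA 2, and was 2 for siRNA 2 without Scr2 replicates 1 and 4. Counts at an unadjusted p under 0.05 ran from 181 to 955 and from 719 to 3928 with 1 library left out, and the count of members under it from 0 to 2 and from 3 to 5. For siRNA 2 the members' count was 1 without Scr2 replicates 1 and 4.

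Reversals with Scr1 replicate 4 and Myc1 replicate 3 left out together were MAX -0.0404, MNT 0.0606, MXD4 0.1484 and MLX -0.0359. Median centring gave MXD3 0.0133 with siRNA 1. The lone Myc2 mouse whose number begins like those of Scr2, set against Scr2 and assumed to vary like it, gave MXD1 -0.0393, MXD4 0.2224 and MLX 0.1148. Without Scr2 replicates 1 and 4, MGA was -0.0525, MLX 0.1188 and MLXIP -0.0144, and the difference of the siRNA effects was -0.0402 for MLX. Without Scr1 replicate 3, that difference was 0.1138 for MAX. With 1 library left out, siRNA 1 differences ran from -0.0869 to 0.1459 for MAX, -0.2982 to 0.3264 for MXD3, -0.1837 to 0.1287 for MXD4 and -0.0597 to 0.2112 for MLX. For siRNA 2 they ran from -0.1178 to 0.0772 for MXD4 and -0.1205 to 0.0869 for MLX. Their cause was not tested. No member symbol was repeated, so summing repeated rows was not run. No paired analysis was possible because each library is a separate mouse and the labels name no pairs. The labels give no replicate numbers, and those used here follow the order of the listed samples within each group. Depth limits MXI1 and MXD1 in Scr1 replicate 3, at about 27 and 31 reads.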
